A study of Mus musculus with 5 samples.

Results

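The ChIP-seq library for histone H3 trimethylated at lysine 27 (H3K27me3) was set directly against the library for RNA polymerase II (RNA Pol II), read for read, along mouse chromosomes 1 to 19. Its units were bins of 10 kb that held at least 20 reads summed over both libraries, 155915 of the 236262 bins with a read in any of the 5 libraries of the series. Each antibody had 1 library. Every value therefore compares 2 libraries, has no replicate check and carries no p-value, and intervals (exact, 95%) cover counting error only. The cells were secondary mouse embryonic fibroblasts with doxycycline-inducible Klf4, Sox2 and Oct4. iPS cells carrying the inducible factors and a selectable Oct4 cassette had been injected into BDF2 blastocysts, and chimeras of 13.5 dpc gave the fibroblasts. A 48 hour puromycin selection (2 µg/ml) served to keep iPS-derived cells, so how many host cells were left is not known, and the medium held 10% cosmic calf serum. The labels give no doxycycline treatment for any library and do not say how many embryos were used. All groups share this source and are told apart in the labels by antibody: AB6002 for H3K27me3, 8WG16 for RNA Pol II, E2F4 (an E2F family transcription factor), and whole cell extract without antibody (WCE, 2 libraries).

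H3K27me3 is deposited by Polycomb repressive complex 2 and marks silent genes, above all regulators of other lineages, often as broad domains. RNA Pol II transcribes protein-coding genes, and antibody 8WG16 reads the repeats of the C-terminal domain of its largest subunit, so its signal gathers at active and paused promoters and along transcribed genes. In pluripotent cells some promoters carry the repressive mark together with polymerase or active marks, and such promoters are called bivalent. A population measurement cannot tell both signals on 1 chromosome from a mixture of cells or alleles.

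The H3K27me3 library held 9483163 distinct autosomal reads and the RNA Pol II library 3111606. The median eligible bin held 42 H3K27me3 reads and 5 RNA Pol II reads. These bins contained 92.8% and 96.4% of the autosomal reads of the respective library. Reads were 36 bp long for H3K27me3 and WCE replicate 2 and 26 bp for RNA Pol II, E2F4 and WCE replicate 1, and the file headers name 1 sequencing run for the first pair and another for the other libraries. Antibody, run and read length therefore cannot be told apart in this comparison. The 3324 bins with exactly 20 reads had a median RNA Pol II to H3K27me3 ratio of 0.481, and the 3340 bins with exactly 19 reads, just outside, had 0.508. No gene is named and no fibroblast marker was checked, because the gene table used here is of another build (GRCm38.p6) than the reads (mm8).

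RNA Pol II was concentrated in few bins, whereas H3K27me3 was spread widely. Bins were called for RNA Pol II where its scaled reads (reads over the library's autosomal total, 1 read added to both counts) were at least 4 times those of H3K27me3 and the interval lay above 1. In this direction 9015 bins were called, 5.78% of all bins. They held 62.3% of the RNA Pol II reads and 5.92% of the H3K27me3 reads of the eligible bins. In the other direction, with a ratio of at most 0.25 and an interval below 1, 43695 bins were called, 28.0% of all bins. They held 46.0% of the H3K27me3 reads and 3.82% of the RNA Pol II reads. The other 103205 bins (66.2%) were called for neither.

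The median bin had a ratio of 0.435, that is 1.20 below 0 on the log2 scale, so scaling by totals places the typical bin on the H3K27me3 side. Measured from the median bin instead, 16081 bins were called for RNA Pol II and 13109 for H3K27me3. The share of RNA Pol II among called bins was then 55.1% in place of 17.1%. The direction of a single bin is accordingly a statement relative to the library totals. The middle of the distribution, from the 25th to the 75th percentile, ran from 0.229 to 0.847, and 40.6% of bins had an interval that contained 1.

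A call for H3K27me3 was often a call of little RNA Pol II. Of the 43695 such bins, 18246 (41.8%) held fewer H3K27me3 reads than the mean eligible bin. They had a median of 38 H3K27me3 reads, 1 RNA Pol II read, 6 E2F4 reads and 40 reads of WCE replicate 2. Another 9920 (22.7%) held at least 2 times the mean, with medians of 165 H3K27me3 reads, 4 RNA Pol II reads and 74 reads of WCE replicate 2. In the following, level means the reads of a bin over the mean of all eligible bins in the same library. By level the second set stood at a median of 2.92 for H3K27me3, 0.208 for RNA Pol II and 1.15 for WCE replicate 2.

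A call for RNA Pol II was a call of much RNA Pol II at an ordinary H3K27me3 level. The 9015 bins had a median of 178 RNA Pol II reads (quartiles 119 and 258) and 55 H3K27me3 reads (43 and 70). Their median levels were 9.25 for RNA Pol II and 0.974 for H3K27me3, against 0.744 for H3K27me3 in all eligible bins. E2F4 stood at 3.13 and WCE replicate 2 at 1.80 in the same bins, so libraries with no part in the choice were raised there too. WCE replicate 1, which had a median of 1 read per bin, stood at 1.11.

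The RNA Pol II end of the range was set by bins with very many polymerase reads. Ranked by the lower end of the interval, the first bin was 5840001 to 5850000 on chromosome 19 (all positions are of mm8). It held 2427 RNA Pol II reads and 100 H3K27me3 reads, a ratio of 73.3 (60.5 to 91.3). A neighbour on chromosome 19, 5800001 to 5810000, held 1663 and 78 reads, a ratio of 64.2 (51.8 to 82.6). On chromosome 13, 23740001 to 23750000 held 798 RNA Pol II reads and 32 H3K27me3 reads, a ratio of 73.8 (53.4 to 112), and it was also high in E2F4, with 249 reads. Chromosome 11 from 86390001 to 86400000 held 1744 and 80 reads, with a ratio of 65.7 (53.1 to 84.2). Chromosome 4 from 135410001 to 135420000 held 1227 and 55, with a ratio of 66.8 (51.9 to 90.8). The 5 intervals overlap, so these bins have no order among themselves. Their H3K27me3 levels ran from 0.567 to 1.77, whereas WCE replicate 2 stood at 1.69 to 4.83.

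The H3K27me3 end was set by bins nearly empty of polymerase. Ranked by the upper end of the interval, the first bin, chromosome 11 from 98140001 to 98150000, held 1056 H3K27me3 reads and 0 RNA Pol II reads. Against the limit that a count of 0 allows (3 reads), H3K27me3 was at least 115-fold higher there, and the interval used for ranking, which is wider, ends at 93.8. On chromosome 13, 73730001 to 73740000 held 630 and 0 reads, at least 68.9-fold higher (interval limit 55.9), and on chromosome 8, 125600001 to 125610000 held 578 and 0 reads, at least 63.2-fold higher (interval limit 51.2). On chromosome 15, 85400001 to 85410000 held 999 H3K27me3 reads and 1 RNA Pol II read, a ratio of 164 in favour of H3K27me3 (58.7 to 12960). The most H3K27me3 reads of the 5 lay on chromosome 9 from 62940001 to 62950000, with 1857 against 5 RNA Pol II reads, a ratio of 102 (52.1 to 376). WCE replicate 2 was at 1.13 to 2.36 times its mean in these bins and E2F4 at 0.827 to 2.21. Their H3K27me3 levels of 10.2 to 32.9 thus stood far above the extract.

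**Figure D1:**
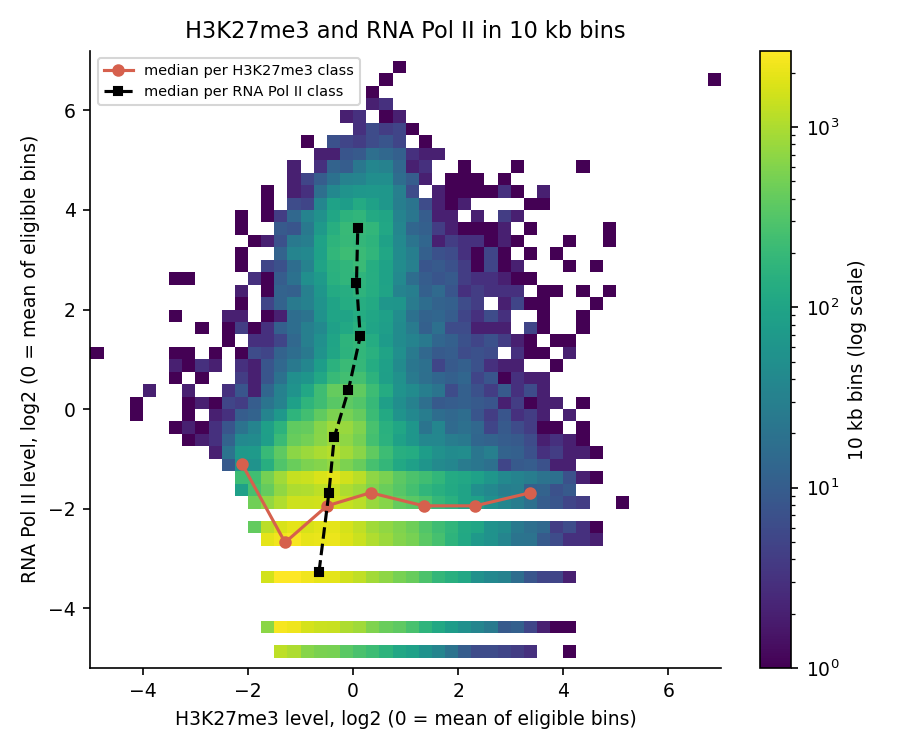
Eligible 10 kb bins by H3K27me3 level (x axis, log2) and RNA Pol II level (y axis, log2), with 0 as the mean of all eligible bins and colour for the number of bins on a log scale. Circles and squares are medians of classes by H3K27me3 and by RNA Pol II, and bins with 0 RNA Pol II reads (5284) are drawn in the lowest row. Bins with much RNA Pol II gather near the mean of H3K27me3. Median RNA Pol II is 0.260 to 0.312 in the classes with H3K27me3 at 2 or more, near the 0.260 of all eligible bins.

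The question of exclusion or co-occurrence was then asked over the whole range of both signals. Bins were put into 7 classes of level with limits at 0.25, 0.5, 1, 2, 4 and 8 times the mean. The share of bins with RNA Pol II at 4 times its mean or more, 5.91% over all bins, rose and then fell along the H3K27me3 classes. It was 0.650% (0.574 to 0.734) at an H3K27me3 level of 0.25 to 0.5, 5.55% (5.38 to 5.73) at 0.5 to 1 and 12.9% (12.5 to 13.2) at 1 to 2. Past the peak it was 5.15% (4.69 to 5.63) at 2 to 4, 3.83% (3.09 to 4.69) at 4 to 8 and 5.89% (4.20 to 7.997) at 8 or more. The lowest class, under 0.25, had 1.39% (0.639 to 2.63) of 646 bins. Bins so low in H3K27me3 passed the minimum only with enough RNA Pol II, so this share is set too high. The fall from the class at 1 to 2 to the class at 2 to 4 is larger than the counting error of either.

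WCE replicate 2 also fell between the classes at 1 to 2 and at 2 to 4, and it rose again above. Its median level was 0.544, 0.932 and 1.24 in the classes from 0.25 up to 2, where RNA Pol II rose, and 1.17, 1.34 and 1.54 in the classes from 2 up. Its upper quartile was 1.77 at 1 to 2 and 1.48 at 2 to 4, then 1.62 and 1.83. The median RNA Pol II level moved little, between 0.156 and 0.312 in the 6 classes from 0.25 up. In the lowest class, where the minimum required RNA Pol II reads, it was 0.468. Over all bins, whatever their extract, the change thus lay in the share with strong polymerase and not in the median. At like extract the median fell too, as given below. E2F4 had medians of 0.552 to 0.827 up to a level of 2, then 0.735, 0.919 and 1.10.

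Seen along the RNA Pol II classes, H3K27me3 rose to its mean and stayed there. Its median level was 0.638 in the 74846 bins with RNA Pol II under 0.25, and 0.726, 0.780 and 0.939 in the next 3 classes. It was 1.10 at 2 to 4, 1.05 at 4 to 8 and 1.06 in the 5504 bins at 8 or more. Over the same classes the median of WCE replicate 2 went from 0.668 to 2.02 and that of E2F4 from 0.552 to 3.77. H3K27me3 therefore rose by less than E2F4 or WCE replicate 2, and since a bin low in RNA Pol II passed the minimum only with enough H3K27me3, its lowest classes are set too high.

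**Figure D2:**
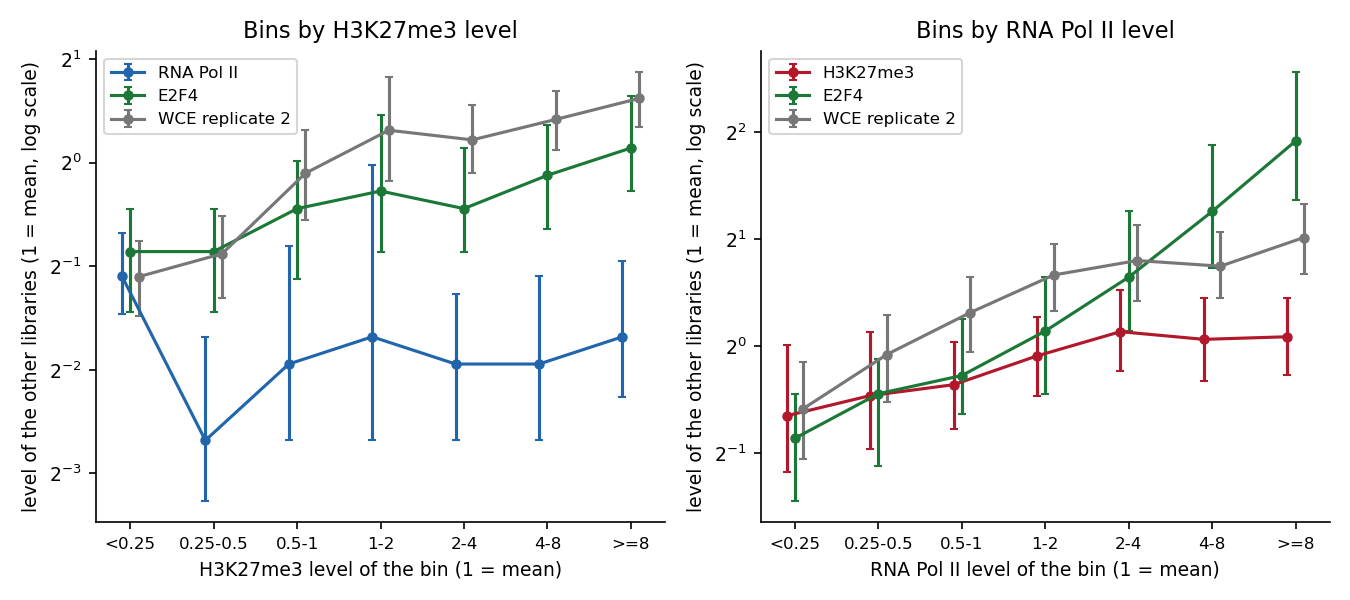
Median level (points) with quartiles (bars) of the other libraries in bins classed by H3K27me3 (left) and by RNA Pol II (right), on a log scale with 1 as the mean of eligible bins. On the left RNA Pol II stays between 0.156 and 0.312 from the second class on, and on the right H3K27me3 stays at 1.05 to 1.10 in the last 3 classes while E2F4 reaches 3.77.

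Across all eligible bins the ranks of both libraries went together weakly, with a Spearman rho of 0.226 over 155915 bins (0.125 on chromosome 13 to 0.403 on chromosome 12). This value describes these bins and is not a test, since bins share mappability and chromatin yield. Each library followed WCE replicate 2 more closely in these bins, with rho of 0.634 for H3K27me3 and 0.628 for RNA Pol II. The minimum was set on the sum of H3K27me3 and RNA Pol II, and WCE replicate 2 was deeper than either, so these values are not on a like footing. The sign of rho between H3K27me3 and RNA Pol II depended on the minimum: it was 0.581 with at least 1 read and -0.130 with at least 40 reads.

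Within bins of like extract, rho between H3K27me3 and RNA Pol II was negative. Both libraries rose with WCE replicate 2, so holding it alike lowers their rho by itself. How much of the sign this sets was not tested, and the values are a description. Bins were put into 5 equal classes by reads of WCE replicate 2. From the class lowest in extract to the highest, rho between H3K27me3 and RNA Pol II was -0.225, -0.198, -0.301, -0.327 and -0.129. The minimum of 20 reads hardly bears on the last 3 classes: of all bins within their limits (50 reads or more) it kept 99.6%, 99.997% and 100%. With at least 1 read in place of 20 these 3 classes gave -0.295, -0.328 and -0.128. The lowest class, where the minimum kept 29.4%, turned to 0.356. E2F4 and H3K27me3 gave rho of -0.012 to 0.069 in the 5 classes, and E2F4 and RNA Pol II 0.110 to 0.670.

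In extract class 4, with 66 to 89 reads of WCE replicate 2, strong RNA Pol II became rarer as H3K27me3 rose, up to the class at 2 to 4. Past that class the intervals overlap. There 7.44% (6.17 to 8.88) of 1519 bins with H3K27me3 at 0.25 to 0.5 and 5.09% (4.77 to 5.42) of 17734 bins at 0.5 to 1 had RNA Pol II at 4 times its mean or more. The share was 3.23% (2.85 to 3.64) at an H3K27me3 level of 1 to 2, 1.06% (0.721 to 1.50) at 2 to 4 and 0.880% (0.381 to 1.73) at 4 to 8. It was 1.53% (0.317 to 4.41) of 196 bins at 8 or more, an interval that holds both neighbours. Median WCE replicate 2 stayed between 1.10 and 1.23 over these 6 groups. The median RNA Pol II level in class 4 was 0.468 at an H3K27me3 level of 0.25 to 0.5. It was 0.208 at 2 to 4 and at 4 to 8, and 0.260 at 8 or more. In class 3 this median went from 0.312 at 0.25 to 0.5 to 0.156 at 1 to 2, and in class 5 from 1.04 at 1 to 2 to 0.364 at 4 to 8. In class 5, with the most extract, the shares from 0.5 to 1 up to 4 to 8 were 23.4%, 28.0%, 14.6% and 7.52%, so the fall began only above an H3K27me3 level of 2. Median WCE replicate 2 was 1.60, 1.86, 1.68 and 1.66 there. In class 3 the share was 1.44% at 0.25 to 0.5, 1.10% (0.946 to 1.27) at 0.5 to 1 and 0.403% (0.265 to 0.585) at 1 to 2. Above that it fell no further, with 0.474% (0.227 to 0.870), 0.923% (0.191 to 2.67) and 3.70% (0.094 to 18.97), the last of 27 bins. The extract itself is raised where RNA Pol II is high and, to a lesser degree, where H3K27me3 is high. The part of this in the result was not tested.

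The reverse view in class 4 showed a fall, a rise and a second fall. Of bins with RNA Pol II under 0.25, 21.6% (20.8 to 22.4) had H3K27me3 at 2 times its mean or more. This share was 12.7% at 0.25 to 0.5, 4.10% (3.63 to 4.62) at 0.5 to 1 and 4.91% (3.86 to 6.16) at 1 to 2. It then stood at 8.81% (6.71 to 11.3) at 2 to 4, 4.38% (3.02 to 6.13) at 4 to 8 and 1.72% (0.827 to 3.14) at 8 or more. The intervals at 0.5 to 1 and at 2 to 4 do not overlap. Class 5 had the same shape, with 34.4% in the lowest RNA Pol II class, 7.58% (6.81 to 8.41) at 1 to 2, 11.5% (10.2 to 12.8) at 2 to 4 and 5.63% (4.99 to 6.32) at 8 or more. Class 3, with fewer bins rich in polymerase, had 1.67% (1.27 to 2.15) at 0.5 to 1 and 5.26% (2.55 to 9.47) at 2 to 4. Its shares of 3.96% at 1 to 2, 5.71% at 4 to 8 and 2.15% at 8 or more had intervals that overlapped that at 2 to 4. In classes 4 and 5 bins of middling polymerase thus carried strong H3K27me3 more often than bins at 1 to 2 or at 8 or more, and in class 3 no such peak could be made out.

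Bins high in both signals were few but present. Of the 9208 bins with RNA Pol II at 4 times its mean or more, 576 had H3K27me3 at 2 times its mean or more, 6.26% (5.77 to 6.77), against 7.50% of all bins. As a share of the 11695 bins high in H3K27me3 they were 4.93% (4.54 to 5.33). At stricter limits, RNA Pol II at 8 and H3K27me3 at 4, the share was 1.07% (0.817 to 1.38) of 5504 bins, against 1.92% of all bins. At the mean of both it was 51.98% (51.3 to 52.7) of 19179 bins against 30.2% of all. Over all bins the shortfall at the upper end depended on the minimum and on the bin size: with at least 10 reads the share was 11.6% against 8.25% of all bins, and in 20 kb bins 9.07% against 8.40%. Without bins of WCE replicate 2 at 4 times its mean or more, it was 5.78% against 7.47% of all bins. Within extract classes 3, 4 and 5, which the minimum hardly touches, bins high in both were scarcer. There the share was 4.62% (2.55 to 7.63) against 7.90% of all bins of class 3, 3.20% (2.32 to 4.30) against 12.9% in class 4 and 6.89% (6.33 to 7.48) against 13.6% in class 5. The limit given above for bins of like extract applies to these shares too.

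Many of the 576 bins lay beside a bin called for H3K27me3. Such a neighbour was found for 316 of them (54.9%), compared with 999 of the 4562 bins (21.9%) high in RNA Pol II with H3K27me3 at 1 to 2 and 600 of the 4070 bins (14.7%) with H3K27me3 under its mean. The neighbours on the 2 sides had opposite calls for 36 of the 576 (6.25%), 157 of the 4562 (3.44%) and 63 of the 4070 (1.55%). Their median levels were 7.90 for RNA Pol II, 2.60 for H3K27me3, 3.26 for E2F4 and 2.18 for WCE replicate 2. The H3K27me3 level of the bin chose them, and neighbouring H3K27me3 bins run together, so the choice sets much of this contrast, which is a description.

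The 5 bins with the highest smaller level were mostly high in every library. Chromosome 17 from 39450001 to 39460000 had a level of 111 for H3K27me3 and 92.1 for RNA Pol II, but also 193 for E2F4 and 86.2 for WCE replicate 2. Chromosome 11 from 3090001 to 3100000 (22.2 and 30.1) stood at 25.2 for WCE replicate 2, 3050001 to 3060000 on the same chromosome (27.5 and 12.6) at 43.8, and chromosome 2 from 98460001 to 98470000 (13.2 and 19.3) at 15.7. The extract was thus raised many times over its mean in these 4 bins. The fifth, chromosome 14 from 66180001 to 66190000, was different, with 695 H3K27me3 reads and 380 RNA Pol II reads, levels of 12.3 and 19.7. WCE replicate 2 stood at only 1.93 and E2F4 at 7.81 there.

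Inside bins rich in RNA Pol II, H3K27me3 reads were denser at the polymerase summit, but less so than the extract. In the 9208 bins with RNA Pol II at 4 or more, the densest 500 bp of RNA Pol II held 60075 H3K27me3 reads in all. This was 2.28 times the density from 3.25 to 5.25 kb away on either side. The corresponding ratio was 4.57 for WCE replicate 2 and 31.6 for E2F4. In the 448 of them with an H3K27me3 level of 2 to 4, the figures were 2.09 for H3K27me3 and 3.76 for WCE replicate 2. In the 128 with 4 or more, they were 1.99 and 2.86. The summit was chosen from RNA Pol II reads alone, so the position of H3K27me3 was free to differ.

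Neighbouring bins resembled each other, and opposite calls were rarer at short range than over all bins. Among the 140605 pairs of adjacent eligible bins, Spearman's rho of the log2 ratio was 0.598. It was 0.310 at 50 kb, 0.169 at 100 kb and 0.057 at 200 kb. Next to a bin called for RNA Pol II, 9.45% of bins were called for H3K27me3, against the 28.0% of all bins. This share rose with distance to 14.8% at 20 kb, 21.3% at 50 kb and 26.2% at 100 kb. At 200 kb it was 29.5% and at 500 kb 30.9%, slightly above the share of all bins. From a bin called for H3K27me3, the share of RNA Pol II calls rose from 2.00% at 10 kb to 5.50% at 100 kb and 6.24% at 500 kb, against 5.78% of all bins. Both calls are ends of the same ratio, so the likeness of neighbours alone makes opposite calls rare nearby. Between H3K27me3 in 1 bin and RNA Pol II in the other, rho was 0.093 at 10 kb, 0.144 at 50 kb and 0.173 at 100 kb.

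Like calls also ran together. Beside an H3K27me3 bin, 59.1% of bins were also called for H3K27me3, 38.4% at 100 kb and 32.7% at 200 kb. Beside an RNA Pol II bin, 18.6% were also called for RNA Pol II, 11.8% at 100 kb and 10.2% at 200 kb. At 1000 kb it was 8.50%, still above 5.78%.

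**Figure D3:**
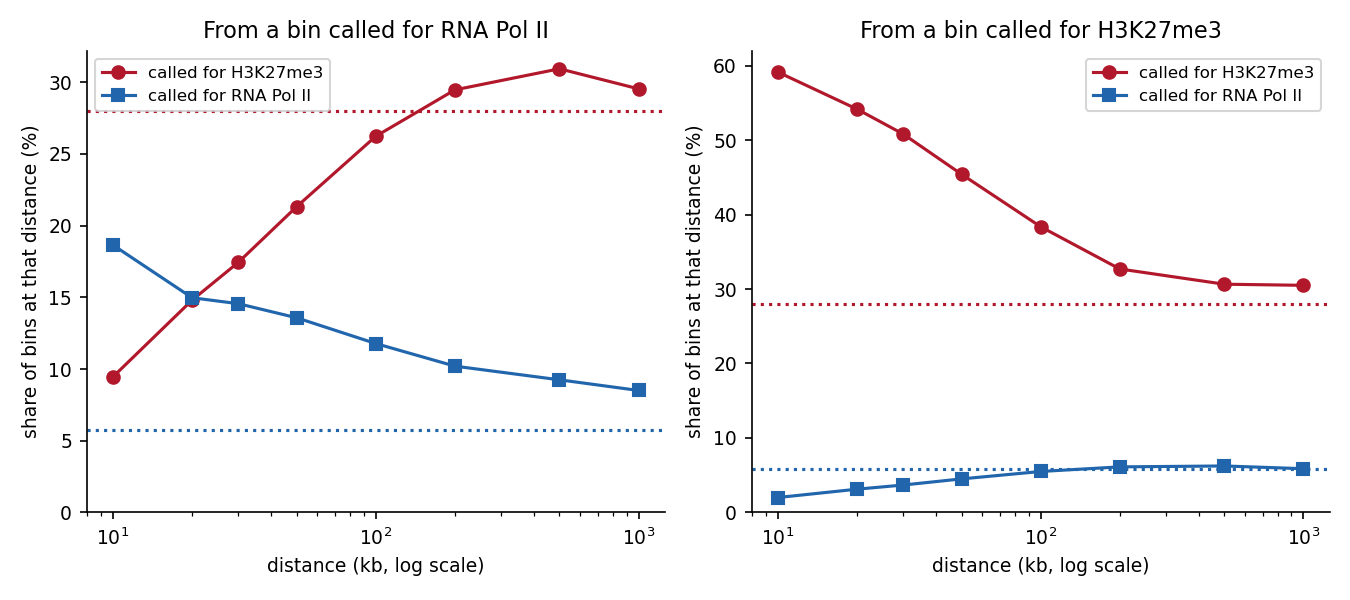
Share of eligible bins called for H3K27me3 (circles) and for RNA Pol II (squares) at distances of 10 to 1000 kb (log scale) from a bin called for RNA Pol II (left) or for H3K27me3 (right). Dotted lines are the shares over all bins, 28.0% and 5.78%. Opposite calls are rare at 10 kb (9.45% and 2.00%) and reach the dotted lines between 100 and 200 kb.

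Sharp switches, adjacent bins with 1 called for RNA Pol II and the other for H3K27me3, numbered 1641, or 1.17% of adjacent pairs. In 800 the H3K27me3 bin came first along the chromosome and in 841 the RNA Pol II bin did. They involved 1612 of the RNA Pol II bins (17.9%) and 1598 of the H3K27me3 bins (3.66%). Passages by way of a bin called for neither were nearly as common, at 1370, and the median ratio of that middle bin was 0.570. For 29 RNA Pol II bins both neighbours were H3K27me3 bins, and for 43 H3K27me3 bins both neighbours were RNA Pol II bins. In 876 switches the intervals of the 2 bins lay at least 4 units apart on the log2 scale. Their size is set by the calls and is no finding. Measured from the median bin there were 624 switches.

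Switches spanned a continuous range of the mark. In 373 of them (22.7%) the H3K27me3 bin held at least 2 times the mean, in 656 (39.98%) 1 to 2 times the mean, and in 612 (37.3%) less than the mean. The first and last shares are near those of H3K27me3 bins at large, 22.7% and 41.8%. In the 373 with a strong mark the mean H3K27me3 level was 4.01 from 5 to 10 kb inside the H3K27me3 bin and fell toward the border. It was 2.83 in the second 1 kb window before the border, 2.32 in the last, 1.88 in the first past it and 1.31 from 5 to 10 kb past it. The choice of bins with a strong mark sets part of this fall. The border is a bin limit, so a mean over switches cannot tell a gradual fall from abrupt ones at different places. RNA Pol II went from 0.592 to 5.55 between the 2 windows at the border, and the calls fix part of that step. E2F4 went from 0.907 to 2.28 there, and WCE replicate 2 from 1.28 to 1.98 between the last window and the mean from 1 to 5 kb past the border.

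Flanks outside the called bins also differed between the sides. Neighbouring bins resembled each other, so the choice of the border bins sets part of this contrast. For every group of switches it is a description. From 10 to 30 kb out, H3K27me3 stood at 3.15 on its own side and 1.30 on the RNA Pol II side. RNA Pol II stood at 1.14 and 3.21 over the same flanks, and WCE replicate 2 at 1.30 and 1.59. In the 656 switches at 1 to 2 times the mean, H3K27me3 stood at 1.55 and 0.920 in these flanks and WCE replicate 2 at 1.13 and 1.35.

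In the 612 switches under the mean, the flanks had 0.855 and 0.653 for H3K27me3, whereas WCE replicate 2 went the other way, from 0.866 to 1.03. RNA Pol II stood at 0.832 and 1.46 there. Within the border bins H3K27me3 was higher on the RNA Pol II side, at 0.917 against 0.719 from 5 to 10 kb from the border. The choice of switches with little mark in the H3K27me3 bin fixes that low value, so it is a description. WCE replicate 2 went from 0.705 to 1.71 and RNA Pol II from 0.070 to 10.9 over the same windows.

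**Figure D4:**
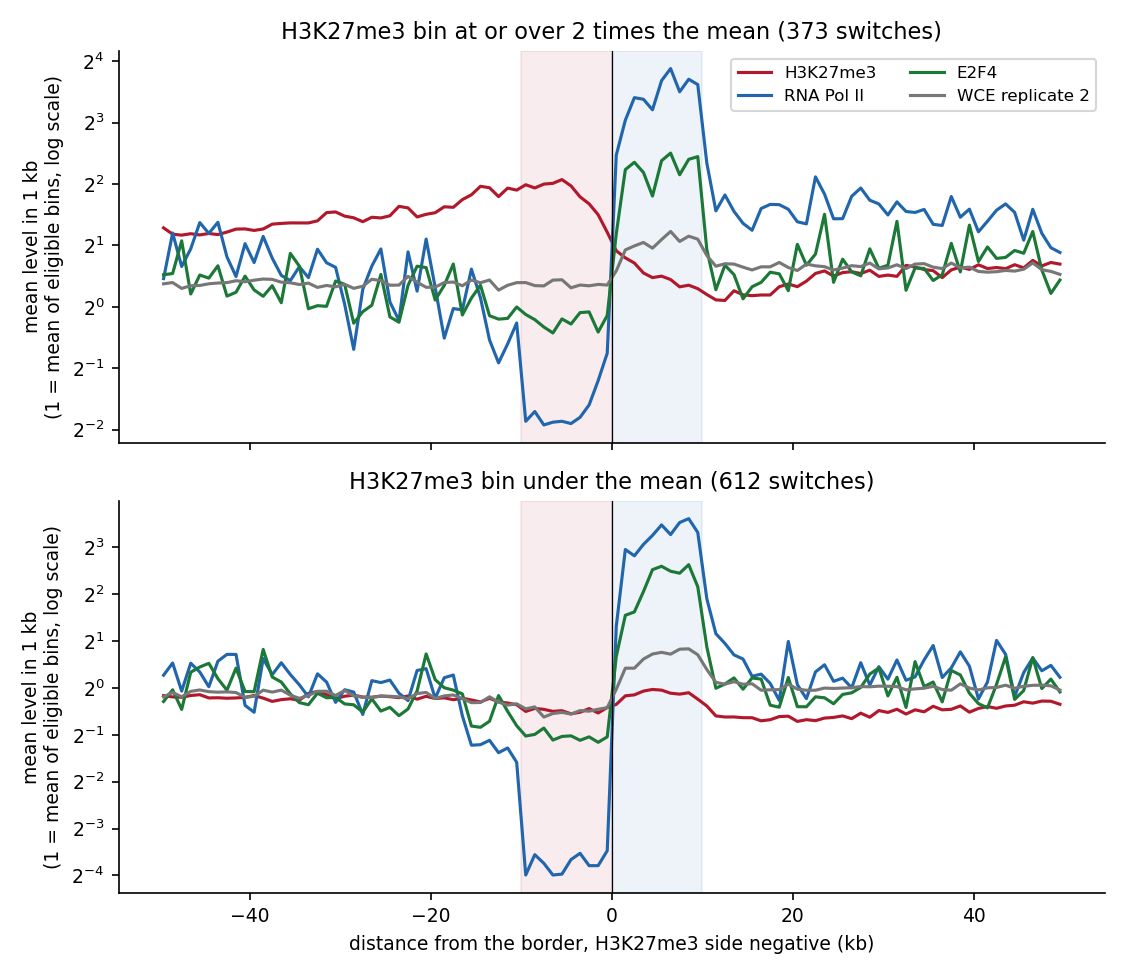
Mean level in 1 kb windows (log scale, 1 as the mean of eligible bins) across 373 switches whose H3K27me3 bin held at least 2 times the mean (top) and 612 whose H3K27me3 bin held less than the mean (bottom), with the H3K27me3 bin (-10 to 0 kb) and the RNA Pol II bin (0 to 10 kb) shaded. At the top H3K27me3 falls from 4.01 to 1.31 within the 2 bins, and at the bottom it goes from 0.719 to 0.917 while RNA Pol II steps up in both.

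The 5 switches with the widest gap between intervals show how close the signals came. On chromosome 7 the bin from 131340001 to 131350000 held 1032 H3K27me3 reads and 2 RNA Pol II reads, and the next bin, 131350001 to 131360000, held 61 and 124. Most of the polymerase lay in 1 kb, the second past the border, with 108 reads. Mark density fell from 178 reads in the fourth 1 kb window before the border to 13 in the last. The 2 windows beside the border held 13 H3K27me3 reads each and 1 and 0 RNA Pol II reads.

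On chromosome 6 a switch ran the other way along the coordinate. The bin from 51100001 to 51110000 held 55 H3K27me3 and 247 RNA Pol II reads (ratio 13.5, 10.2 to 18.7). The bin from 51110001 to 51120000 held 336 and 2. RNA Pol II peaked at 78 reads per kb, 7 to 8 kb from the border, and H3K27me3 reached 55 reads per kb in its own bin. The 9 windows from 3 kb before the border to 6 kb past it held 3 to 19 H3K27me3 reads and at most 7 RNA Pol II reads each.

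A second pair on chromosome 6 had 107 H3K27me3 and 303 RNA Pol II reads from 83020001 to 83030000 and 751 and 6 from 83030001 to 83040000. Here H3K27me3 reached 194 reads in 1 kb and RNA Pol II 238 reads in 1 kb, 9 to 10 kb from the border on the other side. On chromosome 17 the bin from 24900001 to 24910000 held 191 H3K27me3 and 2 RNA Pol II reads, and 24910001 to 24920000 held 90 and 525 (ratio 17.6, 14.2 to 22.5). Its polymerase began in the first 1 kb past the border with 21 reads, and the second held 136. H3K27me3 made no step down at that border, with 21 and 15 reads in the last 2 windows before it and 22, 10 and 15 in the next 3.

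At the switch on chromosome 18 the mark was modest on both sides. The bin from 34330001 to 34340000 held 82 H3K27me3 and 0 RNA Pol II reads, and the bin from 34340001 to 34350000 held 42 and 324. Of those 324 reads, 274 lay in 1 kb. WCE replicate 2 held 49 and 121 reads in these bins. Over all 5 switches WCE replicate 2 was higher in the RNA Pol II bin in 4 and lower, at 84 against 116 reads, on chromosome 7.

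**Figure D5:**
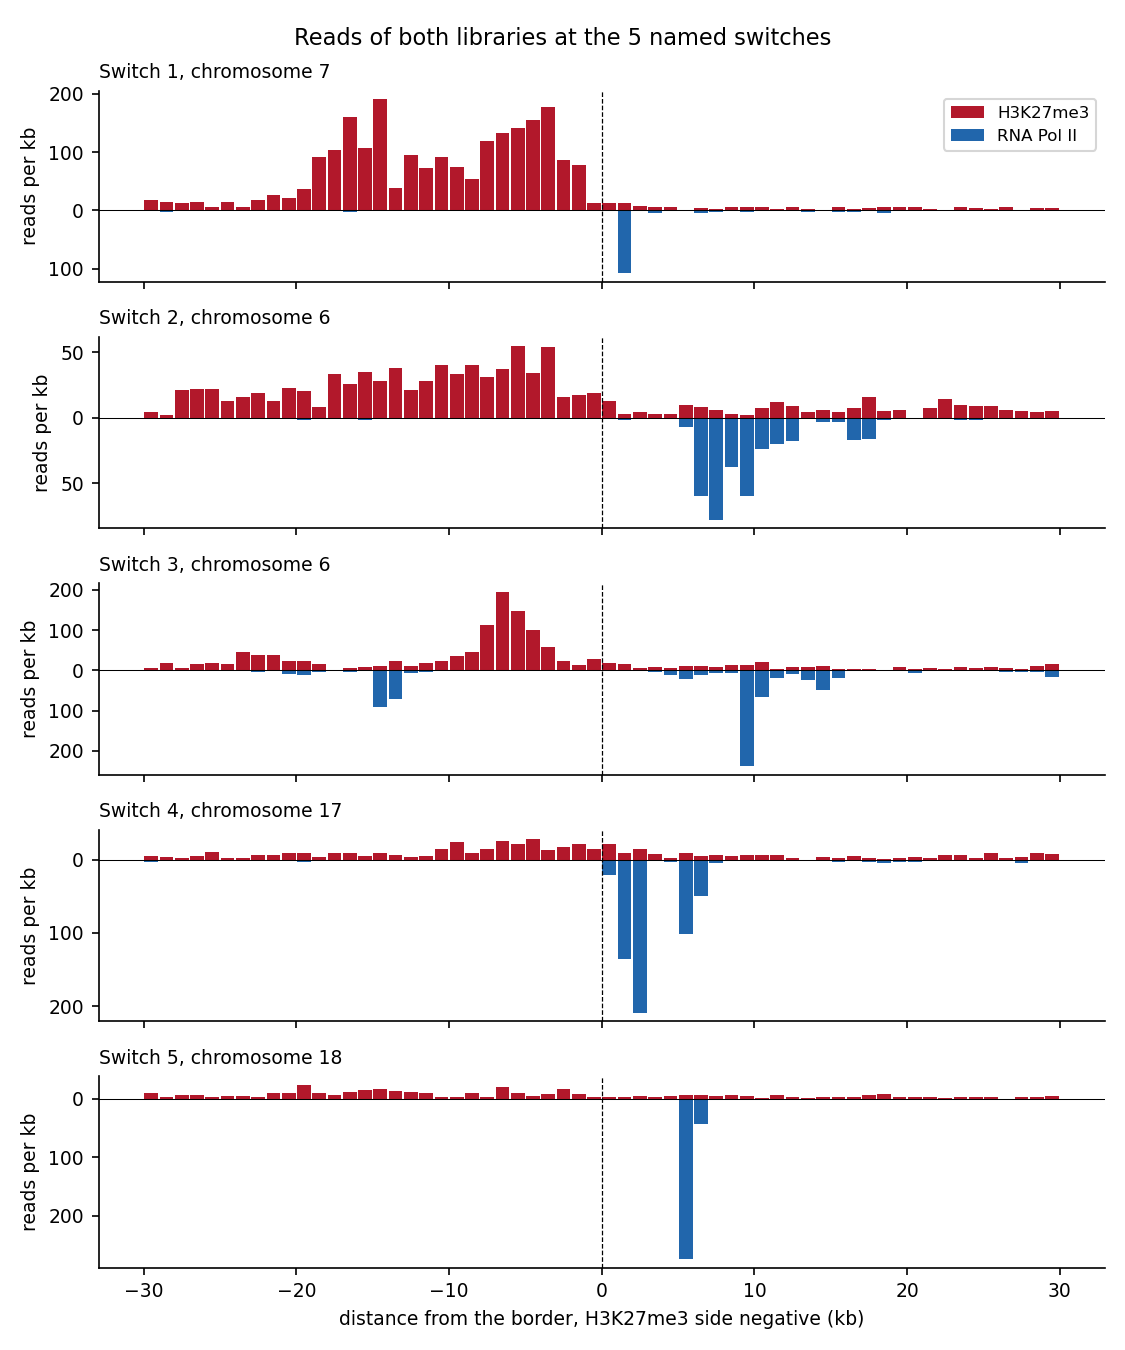
Reads per kb of H3K27me3 (upward) and RNA Pol II (downward) within 30 kb of the border of the 5 switches, turned so that the H3K27me3 bin lies at negative distance. Vertical axes differ between panels, and the tallest RNA Pol II window holds 108, 78 and 238 reads in the first 3 panels and 274 in the last.

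With scaling by totals, runs of adjacent called bins were short for RNA Pol II and longer for H3K27me3. Calls for H3K27me3 were also more common, at 28.0% of all bins against 5.78%, and the part of this in run length was not tested. RNA Pol II bins formed 7397 runs, 84.4% of them a single bin, with 43 of at least 50 kb and 1 of at least 100 kb. H3K27me3 bins formed 19439 runs, 60.1% of them a single bin, with 1957 of at least 50 kb and 548 of at least 100 kb. The longest RNA Pol II run covered 110 kb on chromosome 6 from 36640001 to 36750000, with 2468 RNA Pol II and 414 H3K27me3 reads (ratio 18.1, 16.4 to 20.2). The next covered 90 kb on chromosome 7 (24920001 to 25010000, ratio 9.44, 8.61 to 10.4) and 80 kb on chromosome 1 (71510001 to 71590000, ratio 10.7, 9.54 to 12.0). Runs of 70 kb lay on chromosome 4 (88370001 to 88440000, ratio 18.4, 16.02 to 21.4) and chromosome 6 (52080001 to 52150000, ratio 12.0, 11.1 to 13.1). Of these 5, the last carried the most H3K27me3, at 1.73 times the mean, and it and the run on chromosome 7 each ended in a switch on 1 side.

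The longest H3K27me3 run covered 520 kb on chromosome 12 from 112480001 to 113000000, with 13938 H3K27me3 and 297 RNA Pol II reads, a ratio of 15.3 in favour of the mark (13.7 to 17.3). Chromosome 5 followed with 430 kb from 35430001 to 35860000 (19.5, 16.8 to 22.9). Chromosome 4 had 420 kb from 45560001 to 45980000 (12.3, 10.5 to 14.7), chromosome 12 had 410 kb from 87190001 to 87600000 (12.99, 11.4 to 15.1) and chromosome 9 had 400 kb from 122250001 to 122650000 (16.2, 13.6 to 19.9). Mean H3K27me3 levels of the 5 ran from 2.31 to 4.75 and RNA Pol II levels from 0.144 to 0.297, with WCE replicate 2 at 0.818 to 1.64. The runs on chromosomes 4 and 9 ended in a switch on 1 side, and the other 3 ended in bins called for neither or not eligible.

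The shares of called bins differed between chromosomes in both directions. The share of RNA Pol II bins went from 3.79% (3.39 to 4.23) on chromosome 12 to 8.53% (7.97 to 9.11) on chromosome 11. The share of H3K27me3 bins went from 21.7% (20.6 to 22.8) on chromosome 16 to 33.0% (32.0 to 34.0) on chromosome 7. Chromosome 7 was high in both, with 7.998% of its bins called for RNA Pol II. Adjacent bins are not independent, so these intervals are too narrow. Median reads of WCE replicate 2 per bin differed too, from 50 on chromosome 3 to 68 on chromosome 11, and their part in these shares was not tested.

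The ranks of both libraries went together more closely as bins were widened. Spearman's rho was 0.507 in 20 kb bins, 0.698 at 50 kb, 0.746 at 100 kb, 0.816 at 500 kb and 0.841 at 1000 kb. In 5 kb bins it was -0.122, but 0.474 with at least 1 read per bin, so the sign at 5 kb rests on the minimum. At 500 kb, where the minimum hardly matters (0.820 with at least 1 read), H3K27me3 gave 0.934 and RNA Pol II 0.882 with WCE replicate 2. Each library thus followed the extract more closely than it followed the other.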

How the data were processed

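The deposited values are read positions on mm8, made by the authors with bowtie (-e 70, -k 2, -m 2, -n 2, and -l 26 or -l 36), per the file headers. Per the submitters' processing notes the aligner was Bowtie, of a version not given in these sources. Positions are leftmost bases signed by strand, and the -l value was taken as read length. From the first section, 1 read was counted for each position and strand, which removed 10.7% of H3K27me3 and 10.4% of RNA Pol II reads. Their 5′ ends were moved 60 bp downstream and counted in 10 kb bins. Reads carry no molecular identifiers, so amplified copies may remain among them. Ratios carry exact conditional (Clopper-Pearson) 95% intervals, and a count of 0 was set to 3 reads for a bound. The members, named bins (5 per list by interval limit, run length, gap or smaller level) and tests were chosen with earlier results of these data known. E2F4 and WCE values stand beside results and enter no call. Python 3.11.15, numpy 2.4.6, scipy 1.17.1 and pandas 2.3.3 were used. The caller was tested on simulated data. Alternatives changed the scaling, bin size and start, minimum reads, repeats, shift, depth, pseudocount and thresholds.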

Additional observations from a re-analysis of the deposited data

Results flagged for a closer look

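Chromosome X lay outside the comparison and carried signal of both kinds above the extract. Of its 2565 bins with at least 20 reads, 383 (14.9%) were called for RNA Pol II by the same rule and scaling, against 5.78% on the autosomes. In these bins RNA Pol II stood at 7.92 times WCE replicate 2 (7.79 to 8.06). On X 536 bins (20.9%) were called for H3K27me3, against 28.0% on the autosomes, and in these H3K27me3 stood at 2.15 times WCE replicate 2 (2.11 to 2.20). The calls chose these bins, so both ratios are descriptions. Of the autosomal bins with a read in any library, 66.0% passed the minimum, and the share that passed on X was not computed. A bin low in H3K27me3 passes only with enough RNA Pol II. The shares of called bins on X and on the autosomes are therefore not on a like footing.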

How the results depend on the processing

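No paired analysis was possible because each antibody has 1 library. Of 81 alternatives computed, 44 left a result within its limits, which are 1.5 times for a count, the counting interval for a level or share, and 0.01 for rho. Calls for RNA Pol II numbered 16081 when scaled by the median ratio, 13733 at a ratio of at least 2 and 5525 at 8. Calls for H3K27me3 numbered 13109, 75998 and 16637 under the same 3 settings, 25016 in 20 kb bins and 28929 with H3K27me3 thinned to the RNA Pol II total, where fewer bins passed the minimum. Switches numbered 624, 5171 and 232 under those first 3 settings. Spearman's rho turned to -0.122 in 5 kb bins, -0.130 with at least 40 reads and -0.369 after thinning. The same rho was 0.434 with at least 10 reads, 0.257 with all reads kept and 0.156 without the 10% of bins lowest in WCE replicate 2. It was 0.507, 0.698, 0.746, 0.816 and 0.841 in bins of 20 kb to 1 Mb, and 0.581, or 0.474 in 5 kb bins, with at least 1 read, a setting added after seeing the data. The median H3K27me3 level in bins of RNA Pol II at 4 or more, 1.06, was 0.926 in 5 kb bins, 1.16 in 20 kb bins, 1.28 with at least 10 reads, 0.813 with at least 40, 1.08 with all reads, 0.748 after thinning and 1.002 without the 10% lowest in extract. The share of these bins high in H3K27me3, 6.26%, was 4.35%, 9.07%, 11.6%, 2.50%, 1.99% after thinning and 5.09% without those 10%, for the same settings except all reads. Over all bins the share high in H3K27me3, 7.50%, was 6.70%, 8.40%, 8.25%, 6.88%, 7.11% and 7.38% in the same order. The minimum changes which bins are counted and the mean that defines a level. Removal of bins with WCE replicate 2 at 4 times its mean or more, also added after seeing the data, moved none of the 6 results past these limits. With a median of 5 RNA Pol II reads per bin, depth limits what a single bin can show.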
